A study of Homo sapiens with 18 samples.

Results

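Genes of sterol synthesis, uptake and efflux were examined in cytosolic RNA of the prostate cancer line PC-3, an established human cell line, after a brief passage through a needle. The set is a list of 31 genes with known roles, matched by NCBI Gene ID, and 31 of the 31 were present among the 28395 Gene IDs counted. By role it holds 5 genes of the mevalonate steps, 3 of the isoprenoid steps, 3 of the squalene and lanosterol steps, 9 of the path from lanosterol to cholesterol, 4 that control the transcription factor SREBP, 5 of sterol transport and uptake, and 2 of efflux. The first 4 groups make up 20 enzyme genes. All 31 had counts above the filter on low values, and all 31 were tested.

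Sheared cells had been detached, pushed as a suspension through a syringe with a fine needle, and then kept in suspension on a non-adhesive coating for 3, 12 or 24 h. Static cells were detached and suspended in the same way, without the needle, for the same times. Both kinds had been grown with fetal bovine serum, and both spent the experiment in a medium with insulin, transferrin, selenium and albumin. There were 3 libraries for each of the 6 groups, 18 in all, from 1 cell line. Sheared and static libraries with the same replicate number at 1 time came from 1 pool of cells, so the 18 libraries represent 9 pools, and the pools of different times are independent. The 3 h libraries carry another batch date than the 12 h and 24 h libraries, which share theirs. Time and batch date therefore cannot be told apart between 3 h and 12 h, whereas sheared and static libraries of 1 time share a date.

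Cells make cholesterol from acetyl-CoA through mevalonate, farnesyl diphosphate, squalene and lanosterol, and several branches leave the path for prenyl lipids. When membranes of the endoplasmic reticulum are low in sterol, SCAP escorts the precursor of SREBP2 to the Golgi, where proteases release a factor that raises transcription of synthesis and uptake genes. INSIG proteins hold SCAP back when sterol is plentiful. When oxysterols accumulate, the LXR receptors raise transcription of the efflux transporters ABCA1 and ABCG1 and of MYLIP, a ubiquitin ligase that marks lipoprotein receptors for degradation.

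Depth was 16400487 to 25862360 counts per library. Levels are given as CPM, read counts scaled to a common library size with TMM factors, and CPM is compared between samples and not between genes of different length. The sheared 24 h library of pool 3 stood apart, with a TMM factor of 0.721 and 17007 genes detected, the lowest of the 18 libraries. Of 5 epithelial markers, 5 were expressed in all groups, with a summed 5810 to 9333 CPM in sheared and 5855 to 8692 CPM in static 24 h libraries. KLK3, a marker of prostate luminal cells, was at or below 0.068 CPM in each library. Of the blood, endothelial and fibroblast markers, PTPRC, VWF and DCN were at or below 0.539 CPM. The 5 blood markers summed to 12.2 to 17.4 CPM in sheared and 15.9 to 17.6 CPM in static 3 h libraries, to 34 to 53.2 CPM in sheared and 33.1 to 36.4 CPM in static 12 h libraries, and to 75.5 to 135 CPM in sheared and 65.1 to 119 CPM in static 24 h libraries. Nearly the whole sum was CD68, a lysosomal protein used as a macrophage marker, which was higher in static 24 h than in static 12 h libraries (1.27, edgeR adjusted p = 0.000102) and not called with shear at any time. The summed CPM of 6 fibroblast and endothelial markers, carried by COL1A1 and PECAM1, was 43.1 to 43.6 in sheared and 24.1 to 32.1 in static 3 h libraries, 62.7 to 77.1 in sheared and 102 to 115 in static 12 h libraries, and 80.3 to 113 in sheared and 109 to 143 in static 24 h libraries. COL1A1 was called higher in sheared cells at 3 h (1.19, edgeR adjusted p = 0.000298) and lower at 24 h, and PECAM1 lower at 12 h. Nuclear-retained transcripts (4 genes) summed to 132 to 187 CPM in sheared and 169 to 199 CPM in static 3 h libraries. Their sums were 232 to 283 CPM in sheared and 271 to 290 CPM in static 12 h libraries. At 24 h they were 123 to 544 CPM in sheared and 187 to 299 CPM in static libraries. In sheared cells all 4 were lower at 3 h, 2 with groups apart, and 0 were called. At 12 h 3 were lower, 1 of them called, and 1 was higher. At 24 h 1 was lower, with a call, and 3 were higher without one. The part of these transcripts in the results was not tested. These libraries are bulk samples, so fewer cells with a transcript and less of it per cell cannot be told apart.

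Sheared cells had fewer sterol synthesis transcripts than static cells at 12 h and at 24 h, and not at 3 h. The 20 enzyme genes summed to 1585 to 1845 CPM in sheared 12 h libraries, against 2468 to 2567 CPM in static 12 h libraries. At 24 h the sum was 3687, 2610 and 2667 CPM in the sheared libraries of pools 1, 2 and 3, against 5102, 4577 and 3884 CPM in the static ones. Neither time showed overlap between the groups. At 3 h the sums overlapped, at 1639 to 1849 CPM in sheared and 1540 to 1781 CPM in static libraries. No test was made on these sums.

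**Figure D1:**
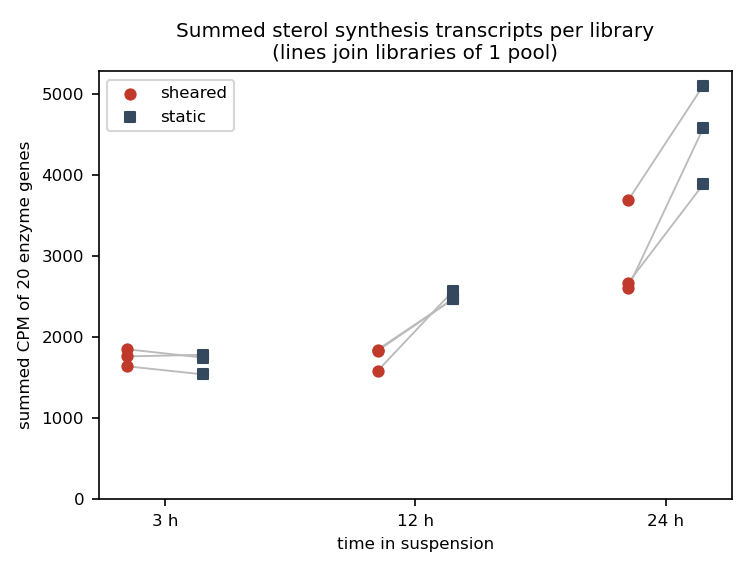
Summed CPM of the 20 sterol synthesis enzyme genes (y axis) in each of 18 libraries against time in suspension (x axis). Circles are sheared and squares static libraries, and lines join the libraries of 1 pool. At 12 h and 24 h each sheared library sits below each static library of its time, and at 3 h they overlap.

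In the fit of all genes, edgeR's quasi-likelihood test with Benjamini-Hochberg adjustment called 0 of the 31 members lower and 0 higher at 3 h, where 0.342% of all tested genes were called lower and 1.12% higher. Only HMGCS1 had an unadjusted p under 0.05 at that time, and DESeq2 called 0. For shear, fell and rose mean called lower or higher in sheared than in static cells of the same time. They do not mean a change with time: the mean enzyme sum of sheared libraries was 1754 CPM at 12 h and 2988 CPM at 24 h. At 12 h 13 members fell and 0 rose, against 4.55% of all genes called lower and 6.29% called higher. At 24 h 18 fell and 0 rose, where 8.07% of all genes were called lower and 9.13% higher. Among members with a higher value, INSIG2 and NPC2 had an unadjusted p under 0.05 at 12 h and INSIG2 alone at 24 h, and DESeq2 called 0 higher at both times.

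The 13 members that fell at 12 h also fell at 24 h. They are ACAT2, HMGCS1, MVK, FDPS, FDFT1, SQLE, LSS, CYP51A1, TM7SF2, HSD17B7, SC5D, DHCR7 and ABCA1. At 24 h they were joined by MVD, GGPS1, NSDHL, NPC1 and TMEM97. The median log2 fold change of sheared over static cells over the 31 members was 0.04 at 3 h, -0.50 at 12 h and -0.53 at 24 h. Over all genes tested it was 0.00539, -0.00789 and -0.021 at the same times. Within single pools, 28, 25 and 28 of the 31 members were lower in the sheared library at 12 h, and 26, 28 and 25 at 24 h, against 16, 9 and 10 at 3 h. Across all genes, 47.6% to 52.2% were lower in a pool's sheared library.

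The number called depended on the pools and on the pairing. At 12 h it was 8 without pool 1, 8 without pool 2, 4 without pool 3 and 1 without the pool block; ACAT2, SQLE, LSS and CYP51A1 remained called whichever pool was left out. At 24 h it was 18 without pool 3, which holds the library that stood apart, and 8 without the pool block. The 18 called without pool 3 were not all the same members, as GGPS1 lost its call there.

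**Figure D2:**
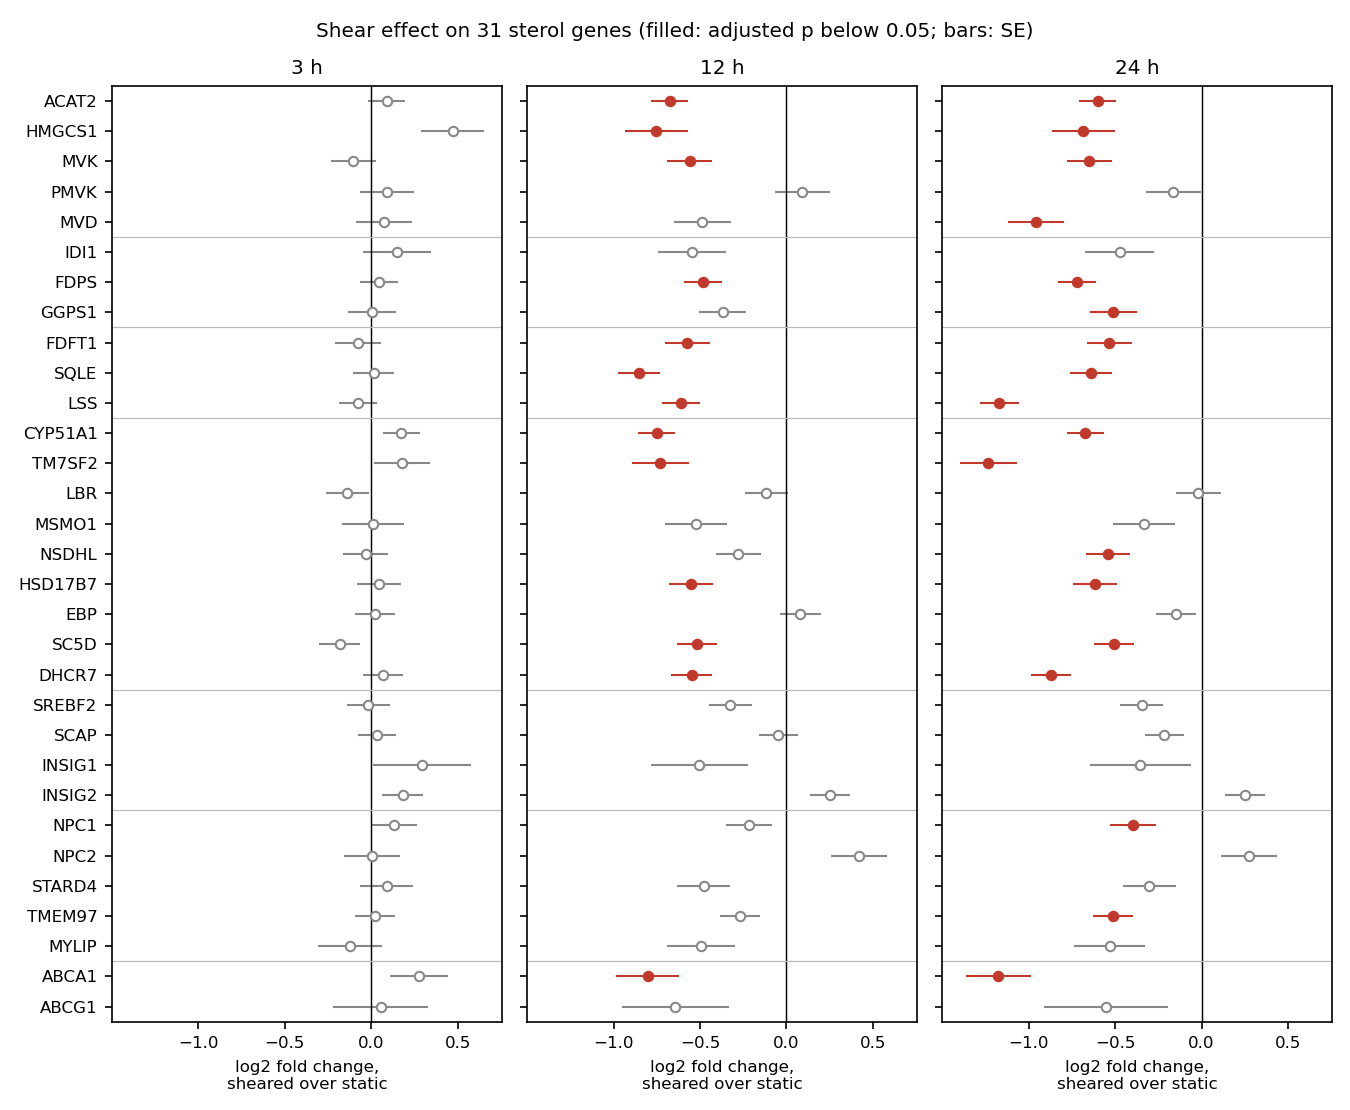
Log2 fold change of sheared over static cells (x axis) for the 31 genes (rows, grouped by role) at 3 h, 12 h and 24 h. Bars are standard errors, and filled points have an adjusted p below 0.05. Filled points number 0 at 3 h, 13 at 12 h and 18 at 24 h, each left of 0.

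Upstream sequence was read for 5 members that cover the patterns found: MVD, LSS, MSMO1, INSIG2 and the efflux gene ABCA1. MVD and LSS fell in sheared cells, and MSMO1 and INSIG2 were not called with shear. In static cells MSMO1 was called higher in both time comparisons. INSIG2 was called higher only at 12 h against 3 h, which also differ in batch date. The stretches come from RefSeq promoter windows (GRCh38.p14), were limited to at most 150 bases outside GENCODE 29 exons, and run 5′ to 3′ on the gene's strand. Capitals mark the letters CCAAT, the NF-Y box, on either strand (ATTGG when read on the other one); NF-Y is a factor that binds beside SREBP in several sterol promoters. The MVD stretch is chr16:88663162-88663297, minus strand.
MVD: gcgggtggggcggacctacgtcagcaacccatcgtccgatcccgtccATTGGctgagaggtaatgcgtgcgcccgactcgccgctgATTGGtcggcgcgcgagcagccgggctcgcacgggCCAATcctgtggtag
The LSS stretch is chr21:46228825-46228974, minus strand.
LSS: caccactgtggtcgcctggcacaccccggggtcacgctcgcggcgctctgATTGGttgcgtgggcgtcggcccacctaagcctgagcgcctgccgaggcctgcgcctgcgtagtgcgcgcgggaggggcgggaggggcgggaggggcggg
The MSMO1 stretch is chr4:165327473-165327622, plus strand.
MSMO1: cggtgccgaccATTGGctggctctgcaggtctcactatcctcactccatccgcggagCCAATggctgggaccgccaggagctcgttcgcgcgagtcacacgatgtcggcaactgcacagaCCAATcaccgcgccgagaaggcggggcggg
The INSIG2 stretch is chr2:118088302-118088451, plus strand, and holds no such letters.
INSIG2: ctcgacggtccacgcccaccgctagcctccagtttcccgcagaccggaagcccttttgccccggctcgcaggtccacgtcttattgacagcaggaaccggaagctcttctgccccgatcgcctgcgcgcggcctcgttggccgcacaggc
The ABCA1 stretch is chr9:104928238-104928387, minus strand, and holds none either.
ABCA1: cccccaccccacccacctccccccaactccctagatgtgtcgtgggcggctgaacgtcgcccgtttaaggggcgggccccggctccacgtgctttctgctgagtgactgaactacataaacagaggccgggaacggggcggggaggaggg

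Over the whole windows of 300 bases (250 before the start and 50 after), which 27 of the 31 members have, CCAAT was present on either strand in 20 members, or 74.1%, against 42.1% of 15843 protein-coding genes. The sterol response element, searched as the letters TCACNCCAC on either strand, was found in SREBF2 alone. It lay 133 bases before the start, and 3.7% of members had it, against 1.51% of genes. Variants of these letters were not searched, and ACAT2, FDFT1, SQLE and ABCG1 have no window. A promoter without a match may therefore still hold such an element. The E-box CACGTG was found in LSS, SC5D, SCAP, INSIG1 and ABCA1, or 18.5% against 10.9%. No motif shared bases with a different motif in a member, but CCAAT and its reverse complement share bases in IDI1 and in NSDHL. By call, 8 of the 20 members with CCAAT fell at 12 h and 12 at 24 h, and of the 7 members without it, 2 fell at 12 h and 3 at 24 h. A match is a description of the letters, and its part in the levels was not tested.

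Among the mevalonate steps, 3 of 5 genes fell in sheared cells at 12 h and 4 of 5 at 24 h. ACAT2, the cytosolic thiolase that joins acetyl-CoA units, had 49.2, 44.0 and 40.3 CPM in sheared 12 h libraries of pools 1, 2 and 3, against 69.9, 73.3 and 69.5 CPM in static ones. Its 24 h levels were 86.0, 78.3 and 53.4 CPM in sheared libraries, against 128, 119 and 82.3 CPM in static ones, and its 3 h levels 52.0, 59.1 and 47.5 CPM in sheared and 53.2, 54.3 and 42.1 CPM in static ones. The groups overlapped at 3 h, stood apart at 12 h and overlapped at 24 h, where each pool was still lower after shear. Its log2 fold change was -0.68 ± 0.11 at 12 h (SE, adjusted p = 0.000895) and -0.60 ± 0.11 at 24 h (adjusted p = 0.000924). On the opposite strand, exons of SOD2 overlap 26.5% of the exon bases of ACAT2, those of SOD2-OT1 33.9% and those of TCP1 9.23%. Whether reads were counted by strand is not given in the sources used here. SOD2 itself was not called in sheared cells at 12 h (0.37) or 24 h (0.07). TCP1 had 242 to 252 CPM in sheared and 197 to 205 CPM in static 12 h libraries, apart but not called. The part of these overlaps in the level of ACAT2 was not tested.

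HMGCS1, the synthase that feeds the mevalonate pathway, was, with TM7SF2, a member whose groups were apart in opposite directions at 3 h and 12 h. It had 118, 138 and 132 CPM in sheared 3 h libraries, against 104, 102 and 76.5 CPM in static ones, a log2 fold change of 0.47 ± 0.18 that was not called (adjusted p = 0.379). At 12 h it had 99.4, 87.2 and 87.9 CPM in sheared libraries, against 153, 161 and 148 CPM in static ones, and fell by 0.75 on the log2 scale (SE 0.18, adjusted p = 0.0169). Its 24 h levels were 248, 86.1 and 159 CPM in sheared and 395, 219 and 163 CPM in static libraries, which overlap, and the change was -0.68 ± 0.18 (adjusted p = 0.0206). The 12 h call was lost without any 1 of the 12 h pools, and the 24 h call without pool 1 or pool 2.

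MVD, the decarboxylase that makes isopentenyl diphosphate, was not called at 12 h, with 41.6, 52.5 and 41.5 CPM in sheared and 58.2, 53.3 and 80.6 CPM in static libraries (-0.49 ± 0.16, adjusted p = 0.0677). At 3 h it had 42.7, 36.5 and 33.4 CPM in sheared and 36.4, 34.3 and 35.8 CPM in static libraries. It fell at 24 h, when it had 156, 98.0 and 64.8 CPM in sheared 24 h libraries, against 220, 209 and 158 CPM in static ones, with no overlap and a log2 fold change of -0.96 ± 0.16 (adjusted p = 0.000687). MVK, the first of the kinases of the path, fell by 0.56 at 12 h and 0.65 at 24 h on the log2 scale; its exons share 4.72% of their bases with MMAB, which also fell at 24 h (-0.60, adjusted p = 0.0106). PMVK, the next kinase, was not called at any time, with log2 fold changes of 0.09, 0.09 and -0.16 at 3, 12 and 24 h.

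Of the isoprenoid steps, FDPS fell at both times and GGPS1 at 24 h. FDPS, which makes farnesyl diphosphate, had 187, 191 and 164 CPM in sheared 12 h libraries, against 251, 232 and 276 CPM in static ones. Later, at 24 h, the levels were 468, 368 and 337 CPM in sheared libraries, against 706, 622 and 592 CPM in static ones. Groups were apart at both times and overlapped at 3 h (203, 215 and 177 CPM in sheared, 207, 196 and 174 CPM in static libraries), with log2 fold changes of -0.48 ± 0.11 (adjusted p = 0.00977) and -0.72 ± 0.11 (adjusted p = 0.000245). FDPS has 10 named pseudogenes, and how their reads were counted is not given in the sources used here. GGPS1, which makes the longer geranylgeranyl chain, changed by -0.37 at 12 h (adjusted p = 0.0916) and -0.51 at 24 h (adjusted p = 0.016). The 24 h call of GGPS1 was lost without pool 3, without the pool block and with the libraries of 24 h alone. TBCE, which shares 37.3% of the exon bases of GGPS1 on the same strand, was not called (0.11 at 24 h). IDI1, the isopentenyl diphosphate isomerase, was lower in each pool at 12 h without a call (-0.55 ± 0.20, adjusted p = 0.0921).

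All 3 genes of the squalene and lanosterol steps fell at 12 h and at 24 h. SQLE, squalene epoxidase, had 142, 132 and 108 CPM in sheared 12 h libraries, against 234, 236 and 216 CPM in static ones. By 24 h it had 325, 180 and 238 CPM in sheared libraries, against 418, 368 and 342 CPM in static ones. No sheared library reached the lowest static one at either time, whereas at 3 h sheared libraries had 149, 156 and 129 CPM and static ones 147, 154 and 129 CPM. Its changes were -0.85 ± 0.12 (adjusted p = 0.000357) and -0.64 ± 0.12 (adjusted p = 0.00152), and both calls held under each alternative fit tried.

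LSS, the cyclase that closes lanosterol, had the smallest p among the members at 24 h. It had 170, 122 and 68.9 CPM in sheared 24 h libraries, against 337, 275 and 178 CPM in static ones. The change of -1.17 ± 0.11 (adjusted p = 2.67e-06) followed one of -0.61 ± 0.11 at 12 h (adjusted p = 0.00265), when sheared libraries had 87.1, 103 and 96.8 CPM and static ones 131, 136 and 173 CPM. The groups were apart at both of these times and overlapped at 3 h, at 104, 98.8 and 89.0 CPM in sheared and 109, 105 and 93.5 CPM in static libraries. The difference between those effects, -0.56 ± 0.16, did not pass (adjusted p = 0.164). FDFT1, squalene synthase, had 194, 136 and 204 CPM in sheared 24 h libraries, against 248, 273 and 243 CPM in static ones. Its 12 h levels were 86.6, 85.3 and 65.9 CPM in sheared and 115, 121 and 115 CPM in static libraries, and its 3 h levels 59.2, 67.3 and 55.5 CPM in sheared and 65.2, 70.9 and 56.0 CPM in static ones. It changed by -0.57 ± 0.13 at 12 h and -0.53 ± 0.13 at 24 h. Its call was lost without pool 2 or pool 3 at 12 h and without pool 2 at 24 h.

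**Figure D3:**
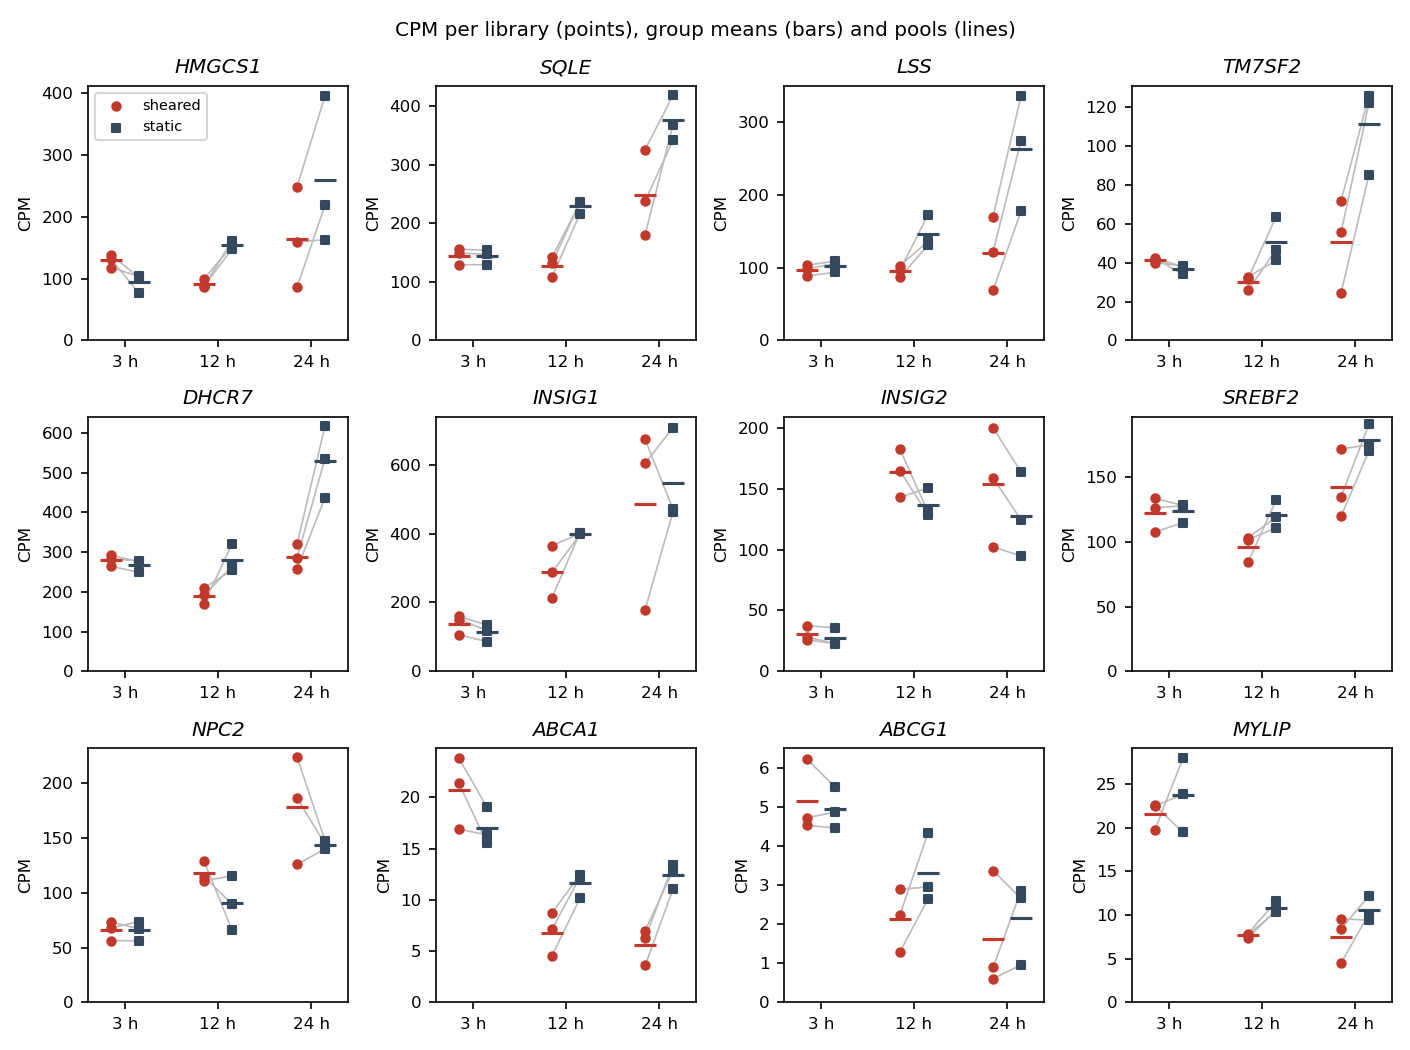
CPM (y axes) of 12 genes in each library against time in suspension (x axes). Circles are sheared and squares static libraries, short bars are group means, and lines join the libraries of 1 pool. SQLE, LSS, TM7SF2, DHCR7 and ABCA1 have no overlap between sheared and static libraries at 12 h or at 24 h, whereas INSIG2 and NPC2 overlap at both times.

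Between lanosterol and cholesterol, 5 of 9 genes fell at 12 h and 6 of 9 at 24 h. CYP51A1, lanosterol demethylase, had 109, 101 and 107 CPM in sheared 12 h libraries, against 179, 186 and 168 CPM in static ones, with no overlap. Its 3 h levels were 149, 170 and 136 CPM in sheared and 147, 138 and 119 CPM in static libraries, which overlap. By 24 h it had 254, 157 and 131 CPM in sheared libraries, against 358, 279 and 211 CPM in static ones. The log2 fold changes were -0.75 ± 0.11 at 12 h (adjusted p = 0.00038) and -0.67 ± 0.11 at 24 h (adjusted p = 0.000369). GENCODE 29 lists a readthrough gene that covers 79.4% of its exon bases.

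TM7SF2 and LBR are sterol reductases of the same step, and only TM7SF2 was called. TM7SF2 had 25.7, 32.7 and 31.7 CPM in sheared 12 h libraries, against 46.5, 41.1 and 63.5 CPM in static ones. Its 24 h levels were 55.6, 71.9 and 24.5 CPM in sheared libraries, against 122, 126 and 85.2 CPM in static ones, so sheared libraries were the lower ones at both times. At 3 h they were the higher ones, with 40.0, 42.2 and 42.1 CPM in sheared and 38.4, 33.9 and 38.0 CPM in static libraries, without a call. Its change of -1.23 ± 0.16 at 24 h (adjusted p = 7.36e-05) was the lowest of the 31 members. LBR, which is also an anchor of the nuclear lamina, changed by -0.12 ± 0.13 at 12 h and -0.02 ± 0.13 at 24 h (adjusted p = 0.6 and 0.945). The difference between these genes was not tested.

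DHCR7, the reductase of the closing step, had 192, 210 and 170 CPM in sheared 12 h libraries, against 264, 254 and 320 CPM in static ones. By 24 h it had 286, 320 and 258 CPM in sheared libraries, against 535, 617 and 437 CPM in static ones. Neither time had overlap, unlike 3 h (292, 283 and 264 CPM in sheared, 276, 278 and 249 CPM in static libraries), and the changes were -0.55 ± 0.12 (adjusted p = 0.00655) and -0.87 ± 0.12 (adjusted p = 7.37e-05). SC5D, a sterol desaturase, and HSD17B7, a keto-reductase with 2 named pseudogenes, fell by 0.51 to 0.62 on the log2 scale at both times. NSDHL, a dehydrogenase of the demethylation steps, fell at 24 h (-0.54, adjusted p = 0.008). MSMO1, the methyl sterol oxidase, had 167, 143 and 87.1 CPM in sheared 12 h libraries, against 194, 188 and 171 CPM in static ones, apart but not called (-0.52 ± 0.18, adjusted p = 0.0766). EBP, the sterol isomerase, was not called, at 0.08 at 12 h and -0.15 at 24 h.

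None of the 4 genes of SREBP control was called in sheared cells at any time. SREBF2, which encodes SREBP2, had 101, 103 and 84.0 CPM in sheared 12 h libraries, against 111, 119 and 132 CPM in static ones. By 24 h it had 171, 134 and 119 CPM in sheared libraries, against 175, 191 and 170 CPM in static ones, and at 3 h 133, 126 and 107 CPM in sheared and 128, 128 and 115 CPM in static libraries. The groups were apart at 12 h only, and the changes of -0.33 ± 0.12 at 12 h and -0.35 ± 0.12 at 24 h did not pass (adjusted p = 0.102 and 0.0625). SCAP changed by -0.05 ± 0.11 at 12 h and -0.22 ± 0.11 at 24 h.

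At 12 h and 24 h INSIG1 and INSIG2 had log2 fold changes on opposite sides of 0. INSIG1, itself a target of SREBP, had 365, 288 and 214 CPM in sheared 12 h libraries, against 400, 397 and 403 CPM in static ones (-0.50 ± 0.28, adjusted p = 0.297). By 24 h INSIG1 had 604, 179 and 673 CPM in sheared libraries, against 707, 464 and 470 CPM in static ones, and at 3 h 160, 151 and 106 CPM in sheared and 135, 119 and 86.6 CPM in static libraries. The sheared 24 h library of pool 2 was the low one, and pool 3 was higher after shear. INSIG2 had 164, 182 and 143 CPM in sheared 12 h libraries, against 129, 131 and 150 CPM in static ones. Its 24 h levels were 159, 102 and 200 CPM in sheared and 124, 94.7 and 164 CPM in static libraries, and its 3 h levels 28.1, 25.9 and 37.5 CPM in sheared and 23.0, 22.8 and 35.8 CPM in static ones. It was higher after shear in 3 of 3 pools at 24 h, but its changes of 0.25 ± 0.12 at 12 h and at 24 h did not pass (adjusted p = 0.17 and 0.148).

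Of the 5 genes of transport and uptake, 0 were called at 12 h, and NPC1 and TMEM97 fell at 24 h. NPC1, the lysosomal cholesterol exporter, changed by -0.39 ± 0.13 at 24 h (adjusted p = 0.0497), a call that most alternatives lost. Its partner NPC2, which hands cholesterol to it, had 115, 129 and 111 CPM in sheared 12 h libraries, against 89.9, 66.3 and 115 CPM in static ones (0.42 ± 0.16, adjusted p = 0.113). TMEM97, which binds NPC1, fell by 0.51 at 24 h (adjusted p = 0.00595). STARD4, a soluble sterol carrier, was apart and lower at 12 h without a call (-0.48 ± 0.15, adjusted p = 0.0522).

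MYLIP had 7.37, 7.77 and 7.88 CPM in sheared 12 h libraries, against 10.6, 10.4 and 11.6 CPM in static ones, apart but not called (-0.50 ± 0.20, adjusted p = 0.117). By 24 h it had 9.58, 8.41 and 4.53 CPM in sheared libraries, against 9.4, 12.2 and 10.1 CPM in static ones, and at 3 h 22.5, 19.7 and 22.5 CPM in sheared and 23.8, 27.9 and 19.4 CPM in static libraries. The 24 h change of -0.53 ± 0.20 did not pass (adjusted p = 0.0818).

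The efflux transporter ABCA1 fell in sheared cells together with the synthesis genes. It had 7.15, 8.73 and 4.56 CPM in sheared 12 h libraries, against 12.2, 12.5 and 10.2 CPM in static ones. Its 24 h levels were 7.0, 6.26 and 3.61 CPM in sheared libraries, against 12.9, 13.4 and 11.1 CPM in static ones. At 3 h its levels were 16.9, 21.4 and 23.8 CPM in sheared and 16.4, 15.6 and 19.1 CPM in static libraries. The groups overlapped at 3 h and were apart at 12 h and 24 h, with changes of -0.80 ± 0.18 (adjusted p = 0.00909) and -1.18 ± 0.19 (adjusted p = 0.000375). The 12 h call was lost without pool 1 or pool 3.

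ABCG1, the other efflux transporter, had the lowest counts of the set. It had 2.25, 2.89 and 1.30 CPM in sheared 12 h libraries, against 4.33, 2.96 and 2.65 CPM in static ones. By 24 h it had 0.612, 0.894 and 3.38 CPM in sheared libraries, against 0.958, 2.86 and 2.66 CPM in static ones, and at 3 h 4.53, 4.73 and 6.23 CPM in sheared and 4.47, 4.87 and 5.51 CPM in static libraries. The groups overlap at each time, and changes of -0.64 ± 0.31 at 12 h and -0.55 ± 0.36 at 24 h did not pass (adjusted p = 0.196 and 0.308).

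The difference between the shear effects of 12 h and 3 h was negative and passed the test for ACAT2, HMGCS1, SQLE, CYP51A1 and ABCA1, which is 5 of 31, and 0 were called higher by edgeR or DESeq2, with 0 at an unadjusted p under 0.05. Of all genes, 0.895% were called lower and 0.514% higher in this difference. The median difference was -0.53 over the members and 0.00326 over all genes. The count was 2, 0 and 1 without pools 1, 2 and 3 of 3 h, 3, 1 and 1 without pools 1, 2 and 3 of 12 h, and 9 without pool 3 of 24 h. Between 24 h and 12 h, 0 members were called in either direction (medians -0.07 for members and -0.0111 for all genes), against 0.079% of all genes called lower and 0.586% higher. DESeq2 called 0 there too, and LSS and TM7SF2 had an unadjusted p under 0.05. Their differences, with that of MVD, were -0.56, -0.50 and -0.47.

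In the authors' deposited tables, which come from DESeq2, 0 members had an adjusted p under 0.05 at 3 h, 8 were lower at 12 h and 14 were lower at 24 h, and 0 were higher. The sign of the log2 fold change in the authors' deposited tables was that of the fit above for 31 of 31 members at each time.

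Sterol synthesis transcripts were higher at later times in static cells. Time in suspension and time in the medium of the experiment ran together, so they cannot be told apart. At 24 h against 12 h, 20 of 31 members were higher and 1 was lower, where 16.9% of all 14804 genes tested were called higher and 15.6% lower. At 12 h against 3 h, which also differ in batch date, 19 were higher and 2 lower, against 21.7% of all genes called higher and 22.9% lower. The median log2 change of members was 0.62 from the first comparison and 0.46 from the second, with 0.00591 and 0.00779 over all genes. Both steps had a call of higher for 14 members. Of the 18 members that fell in sheared cells, 17 were higher in at least 1 of these static comparisons. The shares of all genes with such joint calls were not computed, so these counts are not read as particular to the members. Among the 14, alternative fits lost the call of HMGCS1 in 10 of 14 settings for 12 h against 3 h and in 11 of 14 for 24 h against 12 h. For 12 h against 3 h they lost that of CYP51A1 in 9 of 14 and that of TM7SF2 in 7 of 14. Static 12 h and 24 h libraries enter both kinds of comparison, so they are not independent.

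**Figure D4:**
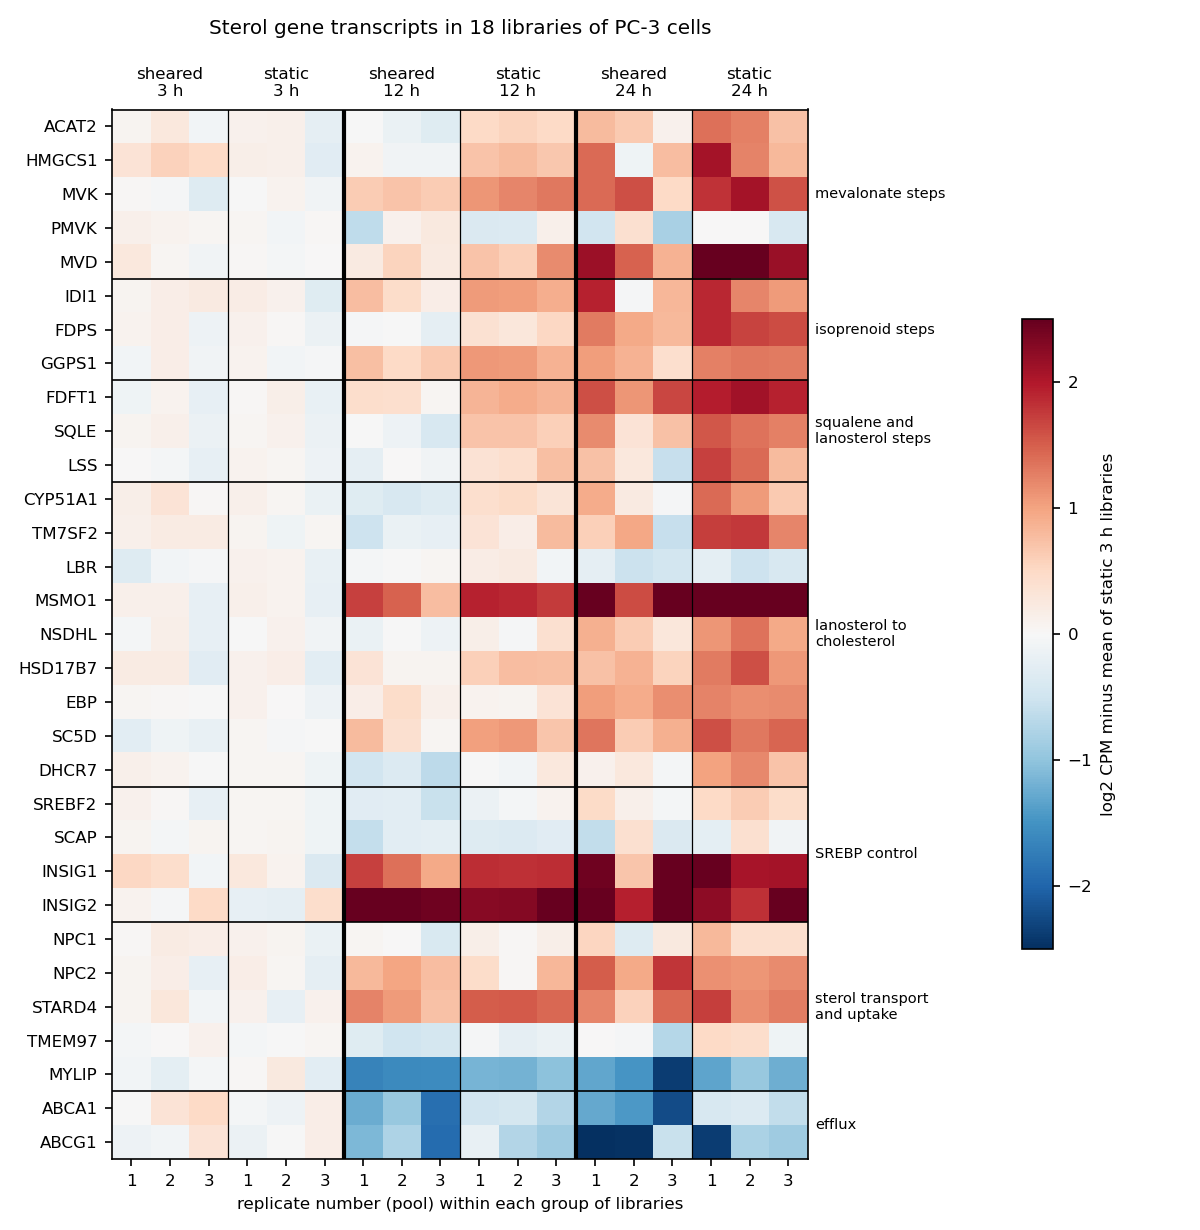
Log2 CPM of the 31 genes (rows, grouped by role) in the 18 libraries (columns), each minus the gene's mean over the static 3 h libraries. Values beyond the ends of the colour scale take the end colour. At 12 h and 24 h most enzyme rows are paler red or blue in sheared columns, against darker red in static ones, and MYLIP, ABCA1 and ABCG1 are below their static 3 h level.

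The largest changes of static cells with time differed between the comparisons. MVD had 220, 209 and 158 CPM in static 24 h libraries, against 58.2, 53.3 and 80.6 CPM at 12 h (1.60 ± 0.16, adjusted p = 2.85e-06). FDPS, at the 24 h and 12 h levels given above, was higher by 1.33 ± 0.13 (adjusted p = 1.60e-06), and FDFT1, with 115, 121 and 115 CPM at 12 h, by 1.11 ± 0.12 (adjusted p = 6.34e-06). None of these groups overlapped. LBR was the member called lower, with 50.0, 41.1 and 44.8 CPM at 24 h, against 66.8, 69.2 and 56.4 CPM at 12 h (-0.51 ± 0.14, adjusted p = 0.00919), a call lost without static 12 h replicate 2.

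Among the 31 members, the highest change of static cells at 12 h against 3 h was that of a regulator. INSIG2 was higher by 2.32 ± 0.20 on the log2 scale (adjusted p = 3.05e-07), and its 12 h and 24 h levels did not differ beyond their spread (-0.11 ± 0.19). MSMO1 had 194, 188 and 171 CPM in static 12 h libraries, against 55.8, 54.4 and 44.1 CPM at 3 h (1.84 ± 0.14, adjusted p = 3.52e-08). In all 3 pools the 3 h levels after shear were 44.1 to 55.7 CPM. At 24 h MSMO1 had 402, 158 and 340 CPM in sheared and 410, 321 and 330 CPM in static libraries. INSIG1 was higher by 1.82 ± 0.18 (adjusted p = 5.18e-07), and STARD4 by 1.48 ± 0.15 (adjusted p = 1.00e-06). MYLIP and ABCA1, both known targets of LXR, were lower by this comparison, at -1.14 ± 0.17 (adjusted p = 3.81e-05) and -0.55 ± 0.16 (adjusted p = 0.00918). The number called higher was 12 without static 3 h replicate 3, and the number called lower was 4 without static 24 h replicate 1.

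**Figure D5:**
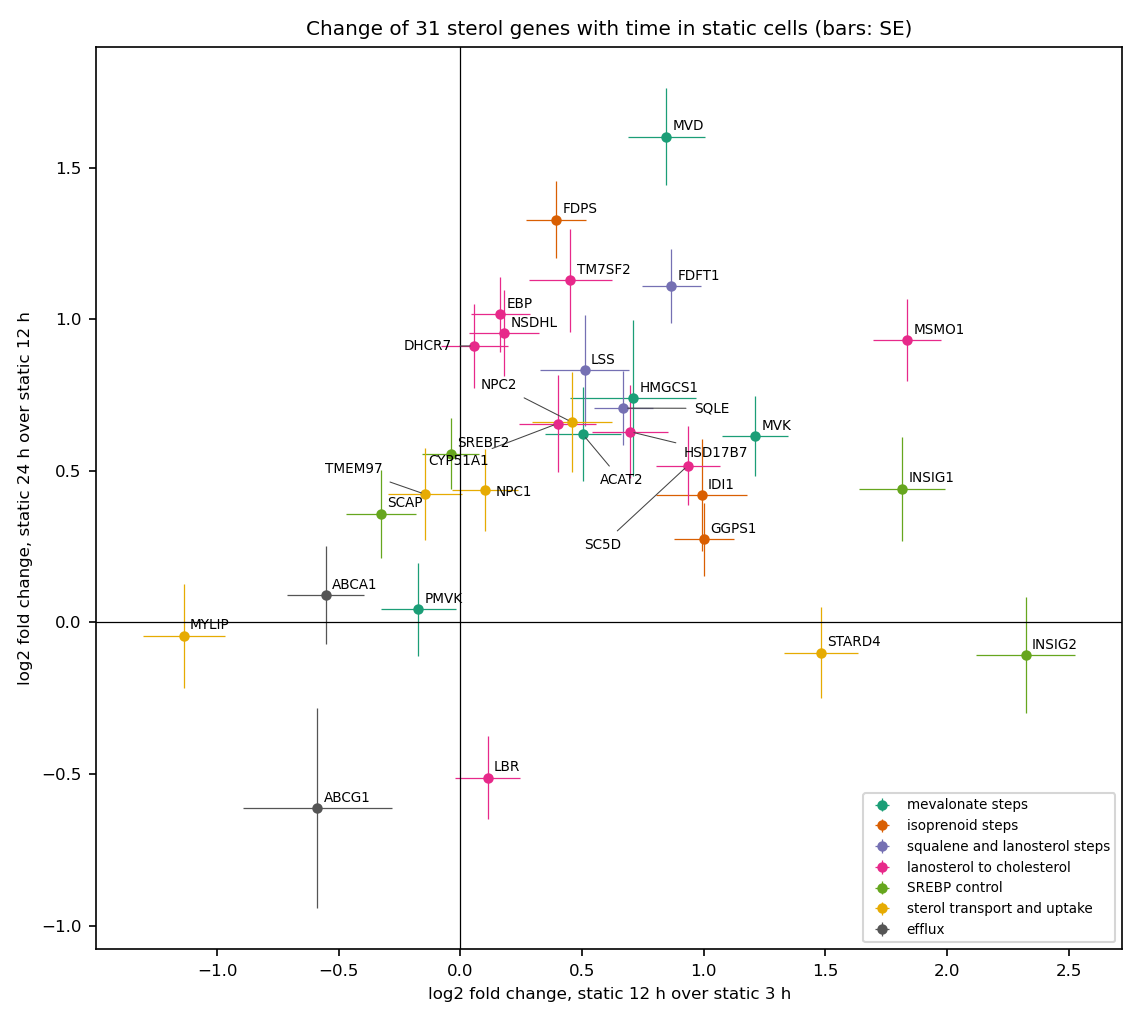
Log2 fold change of static 24 h over static 12 h cells (y axis) against that of static 12 h over static 3 h cells (x axis) for the 31 genes, with standard errors as bars and colours for roles. Most enzymes lie in the upper right, INSIG2 and STARD4 lie far right near 0 on the y axis, and MYLIP and ABCA1 lie left of 0. Static 12 h libraries enter both axes.

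A wider list of sterol genes holds esterases, sterol hydroxylases, LXR receptors and prenyl transferases. Of 40 such genes 38 were tested, and 3 fell and 0 rose at 12 h, while 6 fell and 1 rose at 24 h, with medians of -0.11 and -0.10. Over all genes, 4.55% were called lower and 6.29% higher at 12 h, and 8.07% lower and 9.13% higher at 24 h. SREBF1, which encodes the related factor SREBP1, had 97.4 to 115 CPM in sheared 12 h libraries, against 157 to 201 CPM in static ones (-0.67 ± 0.10, adjusted p = 0.00074). ERG28, a scaffold of the demethylation enzymes, changed by -0.51 (adjusted p = 0.00738), and GRAMD1C, of a family of sterol transfer proteins, by -0.82 (adjusted p = 0.00748). The next smallest p belonged to PGGT1B, a subunit of a prenyl transferase, which was not called (-0.45, adjusted p = 0.0916). In static cells 8 of 37 were higher and 4 lower at 24 h against 12 h, where 16.9% of all genes were called higher and 15.6% lower. At 12 h against 3 h 7 were higher and 10 lower, where the shares over all genes were 21.7% and 22.9%. None of these counts is read as particular to the list.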

How the data were processed

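Detergent lysis gave cytosolic RNA, per the labels' protocols. Alignment used STAR and GRCh38.p13, and the authors' comparisons DESeq2, per the submitters' processing notes; no version, read counter, annotation or strandedness of counting is stated in the sources used here. Raw, unnormalized counts fill the table the authors deposited, 1 row per NCBI Gene ID. The authors also deposited, for each of 3 times, a table with a log2 fold change and an adjusted p-value per gene, used here only as printed. Symbols came from RefSeq for 27745 of 28395 Gene IDs, and exons from GENCODE 29. The 3 h count columns were assigned from the time and letter that the names of the libraries hold.

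Counts were tested with edgeR 4.0.16 (R 4.3.3): filterByExpr (minimum count 10, minimum total 15), TMM factors, robust quasi-likelihood F tests, and Benjamini-Hochberg adjustment over all genes at 0.05. One model of 18 libraries, 15189 genes, held the 9 pools as a block and a shear effect per time; another held the 9 static libraries, 14804 genes. The pairing comes from the study's design text. Deviations from the group means had a correlation of 0.0881 to 0.299 (3 h), -0.148 to 0.245 (12 h) and 0.379 to 0.504 (24 h) between same-numbered sheared and static libraries. Between differently numbered ones it was -0.242 to 0.130 (3 h), -0.385 to 0.233 (12 h) and -0.296 to -0.0924 (24 h). The ranges were apart at 24 h only. CPM values and SDs cover the spread between 3 pools per group. SEs of shear effects come from the fit with the pool block, so they leave out the spread between pools. They rest on the residual spread within pools over all times, moderated across genes. SEs of static comparisons come from the fit of the 9 static libraries and include the spread between pools. Intervals of counting error were not added. Replicates differed by more than counting error (chi-square per degree of freedom 4.44 to 143).

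The members, lists and tests were chosen with earlier results of these data known. Values in every library are given for members with the 3 smallest p-values per comparison and for HMGCS1, SQLE, INSIG1, INSIG2, SREBF2, ABCA1, ABCG1 and MYLIP; for the wider sterol list, counts and the 4 smallest p-values at 12 h. The exon neighbours were added after the data were seen. On simulated counts with known changes, the 12 h comparison recovered 28.4% of 67 genes changed 1.5-fold. It recovered 67.8% of 59 genes changed 2-fold and 94.6% of 74 changed 4-fold, with 10 false among 139 calls, over 15097 genes. In the data 691 genes were called lower and 956 higher at 12 h. The simulation held far fewer changed genes, so its rates are not those of the data. Alternatives were DESeq2 1.42.0, its size factors in edgeR, total-count scaling, no filter, no pool block, each time alone, 6 group means for the static comparisons, and each pool or static library left out.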

Additional observations from a re-analysis of the deposited data

Results flagged for a closer look

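For 5 of the 31 genes the shear effect itself differed between 12 h and 3 h by edgeR's quasi-likelihood test of that difference, adjusted over all 15189 genes. The difference in log2 fold change, 12 h minus 3 h, was -0.76 for ACAT2 (adjusted p = 0.0163), -1.22 for HMGCS1 (adjusted p = 0.0297), -0.87 for SQLE (adjusted p = 0.0153), -0.92 for CYP51A1 (adjusted p = 0.00309) and -1.08 for ABCA1 (adjusted p = 0.034). At 12 h each of the 5 was lower in the sheared library of 3 of 3 pools. At 3 h HMGCS1, SQLE, CYP51A1 and ABCA1 were lower in 0 of 3 pools and ACAT2 in 1 of 3. Each of these calls was lost without the pool block and in at least 1 fit that left out a pool, and CYP51A1 lost it without pool 2 of 3 h alone. The 3 h libraries carry another batch date, so a change of the shear effect with time and one with batch date cannot be told apart.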

How the results depend on the processing

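Across the 78 called member results and their alternatives, 1123 in all, 964 kept direction and call, 159 kept direction without the call and 0 turned direction. Without the pool block (no pairing of sheared and static libraries) the number of members called lower was 1 at 12 h, 8 at 24 h and 0 for the difference between 12 h and 3 h, against 13, 18 and 5 with it. Scaling to total counts moved the median log2 fold change of all genes to -0.16 at 12 h and -0.18 at 24 h. It gave 22 members called lower at 12 h, and the members' changes in this setting contain that shift of all genes. Of all genes 1441 were then called lower and 425 higher at 12 h (691 and 956 with TMM). At 24 h 2410 were lower and 782 higher (1225 and 1387 with TMM). Scaling to total counts also moved the median of all genes to -0.10 for the difference between 12 h and 3 h and to -0.18 for static 24 h against 12 h. With no filter on low counts, 1 member was called higher at 3 h, 1 was called higher at 12 h, and 9 were lower in the difference between 12 h and 3 h. With the 6 libraries of a time alone, 1 was lower and 2 were higher at 3 h, and 10 were lower at 24 h. With 6 group means over all 18 libraries, 1 was lower in static 12 h against 3 h. The cause was not tested.

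Leaving out each pool in turn gave 4 to 18 members lower and 0 to 1 higher at 12 h, 15 to 19 lower at 24 h, 0 to 1 higher at 3 h and 0 to 9 lower in the difference between 12 h and 3 h. Leaving out each static library gave 17 to 22 higher and 0 to 1 lower at 24 h against 12 h, and 12 to 19 higher and 2 to 4 lower at 12 h against 3 h. The 6 residual degrees of freedom limit precision, and ABCG1 is limited by its low counts.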

Other observations

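GRAMD1B, which encodes a protein that carries cholesterol from the plasma membrane to the endoplasmic reticulum, was higher in sheared cells at 3 h, the only one of 38 tested genes of the wider sterol list called at that time. It had 158 to 174 CPM in sheared 3 h libraries, against 80.5 to 84.1 CPM in static ones. Its log2 fold change was 1.01 ± 0.10 (SE from the fit of 18 libraries with 3 pools per time, edgeR adjusted p = 1.17e-05). At 12 h it had 86.4 to 100 CPM in sheared and 90.1 to 109 CPM in static libraries (-0.11 ± 0.10, edgeR adjusted p = 0.541). At 24 h it had 61 to 83.1 CPM in sheared and 74.5 to 105 CPM in static libraries (-0.38 ± 0.10, edgeR adjusted p = 0.0143). The difference between the effects at 12 h and 3 h was -1.12 ± 0.14 (edgeR adjusted p = 0.000589). GRAMD1B was named after its values were seen.

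ACAT1, the mitochondrial thiolase and a relative of the cytosolic ACAT2, was the only gene of that list called higher at 24 h (0.41 ± 0.14, edgeR adjusted p = 0.0461). It had 69.3 to 127 CPM in sheared and 65.4 to 102 CPM in static 24 h libraries, which overlap, and was higher in 3 of 3 pools.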
